A study of Mus musculus with 8 samples.

Results

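The hippocampus of 4 control mice was compared, gene by gene, with a universal mouse reference RNA that was hybridized together with it. The comparison rests on the 4 arrays titled as controls, of 8 arrays in the series. Each mouse was an adult male Muta Mouse, a transgenic strain used to score mutations. The controls were the vehicle group of a study of benzo[*a*]pyrene and, by the study's methods, received olive oil by gavage, at 0.005 ml per g body weight and for 3 days as stated for the exposed mice. The tissue was taken 24 hr after the last dose. Its RNA was labeled with Cy5. The reference, commercial total RNA labeled with Cy3, was the same on every array by the labels. Universal reference RNAs of this kind are pooled from cell lines of several tissues, and the labels name no cell line for this one. The titles of controls 3 and 4 conflict with their source names, which call them exposed. The titles were followed, and calls that changed without these mice are named with the counts below. All arrays lay on 1 slide, with controls 1 and 2 in its first row and controls 3 and 4 in its second, so that a difference between the rows and one between the labels cannot be told apart. Controls 1 and 3 lay in columns 1 and 2 of the slide and controls 2 and 4 in columns 3 and 4.

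The hippocampus is a folded cortical structure that forms and recalls memories. Excitatory pyramidal neurons of the CA fields and granule neurons of the dentate gyrus carry its main circuit, inhibitory interneurons shape their firing, and astrocytes, oligodendrocytes, microglia and vessels make up the rest of the tissue. Nearly all of its neurons have left the cell cycle, whereas cell lines divide. If this reference is a pool of cell lines, the ratio sets a mature nervous tissue against dividing cells of other origins. The ratio is not a comparison with another tissue of the same mouse. The make-up of the reference was not measured here.

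The value reported for a gene is the log2 ratio of Cy5 over Cy3, normalized within each array so that the typical probe lies near 0. A positive value means more hippocampal than reference signal. Dyes were not swapped, so a dye preference of a probe is part of its ratio and cannot be told apart from expression. In tissue RNA, more cells of a type and more RNA per cell cannot be told apart either. The reference carries 1 description on all arrays, so the tests below measure spread among mice and arrays, not among reference pools. Of the spots on an array, 56.6% to 67.4% were well above background in Cy5 and 62.2% to 66.0% in Cy3, and 0 were saturated. The array of control 1 had 1483 outlier spots, against 310 to 364 on the others. Between any pair of mice the ratios correlated across genes, which are not independent replicates, at a Pearson r of 0.984 to 0.988, and differed by a median of 0.14 to 0.18 on the log2 scale.

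The zero of the scale is set by the normalization. Centring each array on its median instead of by loess moved the median probe to -0.19, Agilent's own log ratio moved it to -0.17, the authors' deposited ratios to -0.13, and a zero set on the spike-in transcripts, which was chosen after the data were seen, to -1.64. Differences between genes on the same array do not move with a shift common to all genes. Some groups turned with the setting. With median centring the medians of the oxidative phosphorylation, glycolysis and proteasome lists and of the genes the study names were below 0 instead of above it. Agilent's and the authors' ratios did so for the proteasome and kidney lists. The zero on the spike-in transcripts did so for all of these and for the thalamic, cerebellar, hypothalamic, pluripotency and sex chromosome lists. The medians of the other lists kept their sign in these 4 settings, but not their size. With Agilent's log ratio the list medians moved by -2.00 to 2.19, with that of the glutamate receptor genes going from 3.67 to 5.73, and with median centring by -1.67 to 0.0048.

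Hippocampus and reference differed widely. Of 36059 probes tested, 10022 (27.8%) were higher in hippocampus and 8745 (24.3%) were lower, at an adjusted p of 0.05 in limma and a 1.5-fold difference. Counted by gene, with the brightest tested probe standing for each, 5197 of 16130 genes (32.2%) were higher, 4793 (29.7%) were lower and 6140 (38.1%) passed in neither direction. These shares are the background for every gene list below. At 4-fold or more, 2084 genes were higher and 1264 lower, and at 16-fold or more 702 were higher and 130 lower. Of 9859 called genes with a value in all 4 mice, 9836 had the same sign in every mouse. The calls were made on these same values, so a shared sign largely follows from the call. With controls 1 and 2 alone, 9812 probes were higher and 8462 lower. Among genes named below, *Cacna1b* (0.57), *Dppa4* (-0.28), *Lrrc7* (0.47) and *Th* (0.53) then lost their call, *Gm5741* (1.37), *Lum* (0.72) and *Rnu3b1* (-1.93) gained one, and *Baiap2l1* (0.65) and *Tomm22* (0.85) turned from below 0 to a call above it. The median of the genes the study names fell from 0.36 to 0.03. Median centring gave 7460 higher and 12670 lower probes, and the zero on the spike-in transcripts 5033 and 26743. Reference signal was not well above background on any array for 625 of the genes tested, and hippocampal signal for 685. For these a fold is a lower bound, and a log2 ratio, where one is printed, is the measured ratio to a channel at background. They entered the test through the other channel, so the filter fixed their direction, and most counts over lists that hold such genes are given below also without them. Without them 31.4% of 14820 genes were higher and 29.6% lower.

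The highest ratios are given first. *Sparcl1*, a matrix protein secreted by astrocytes that promotes synapse formation, had log2 ratios of 9.14, 9.25, 8.76 and 8.56 in controls 1 to 4, with a mean of 8.93 (adjusted p = 3.2e-10 from limma). *Syt1*, the calcium sensor of neurotransmitter release, had 8.72, 8.77, 8.99 and 8.98, and *Chgb*, a protein of dense-core granules, had 8.83, 8.83, 8.72 and 8.85. *Sparcl1* varied more among the mice, with an SD of 0.32, than the other two, with SDs of 0.14 and 0.059. They were followed by *Nefl*, the light neurofilament chain, at 8.47 ± 0.08 (SD, n = 4), the neuronal membrane protein *Gpm6a* at 8.40 ± 0.20 (SD, n = 4), and the axonal adhesion molecule *Cntn1* at 8.12 ± 0.12 (SD, n = 4). *Crym*, which binds thyroid hormone, stood at 7.96 ± 0.26 (SD, n = 4), *Mlc1*, an astrocyte membrane protein, at 7.82 ± 0.11 (SD, n = 4), and *Nrsn1*, a neuronal vesicle protein, at 7.64 ± 0.25 (SD, n = 4). The tenth gene, the metabotropic glutamate receptor *Grm5*, had 7.51 ± 0.05 (SD, n = 4) for its brightest probe, while its 3 probes ranged from 1.22 to 7.51. Where the reference was at background, the lower bound was highest for the cannabinoid receptor *Cnr1*, at least 245-fold higher in hippocampus, followed by *Gkn1*, known as a stomach mucosal protein, at least 229-fold, the adhesion molecule *Chl1*, at least 187-fold, the membrane traffic protein *Mal2*, at least 179-fold, and *Elmod1*, at least 170-fold. Each of these 5 genes was well above background in Cy5 in all 4 mice.

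The lowest ratios were the following. *Anxa1*, a calcium-dependent phospholipid-binding protein of leukocytes and epithelia, had log2 ratios of -5.78, -5.96, -5.82 and -6.10, and *Emp1*, an epithelial membrane protein, had -5.83, -5.95, -5.48 and -6.27. *Uhrf1*, which maintains DNA methylation behind the replication fork, had -5.71, -6.06, -5.94 and -5.60, although its 2 probes ranged from -5.83 to -1.49. The proliferation marker *Mki67* stood at -5.80 ± 0.12 (SD, n = 4), the ribonucleotide reductase subunit *Rrm2* at -5.48 ± 0.25 (SD, n = 4), and the survivin gene *Birc5* at -5.37 ± 0.14 (SD, n = 4) for its brightest probe, with its other probes reaching -1.74. The interleukin-33 receptor *Il1rl1* stood at -5.46 ± 0.12 (SD, n = 4), with its 3 probes from -5.70 to -1.87, the aldo-keto reductase *Akr1b8* at -5.42 ± 0.09 (SD, n = 4), the cyclin-dependent kinase inhibitor *Cdkn2a*, known to build up in cultured cells, at -5.37 ± 0.19 (SD, n = 4), with its 2 probes from -5.37 to -3.03, and the complement protease *C1s1* at -5.34 ± 0.23 (SD, n = 4). Where hippocampus was at background, the interferon-inducible *Ifi202b* was at least 119-fold higher in the reference, the macrophage lectin *Clec4d* at least 50-fold, the cytokinesis factor *Ect2* at least 34.3-fold, *Spinkl* at least 34.1-fold and the spindle protein *Aspm* at least 29.5-fold.

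**Figure D1:**
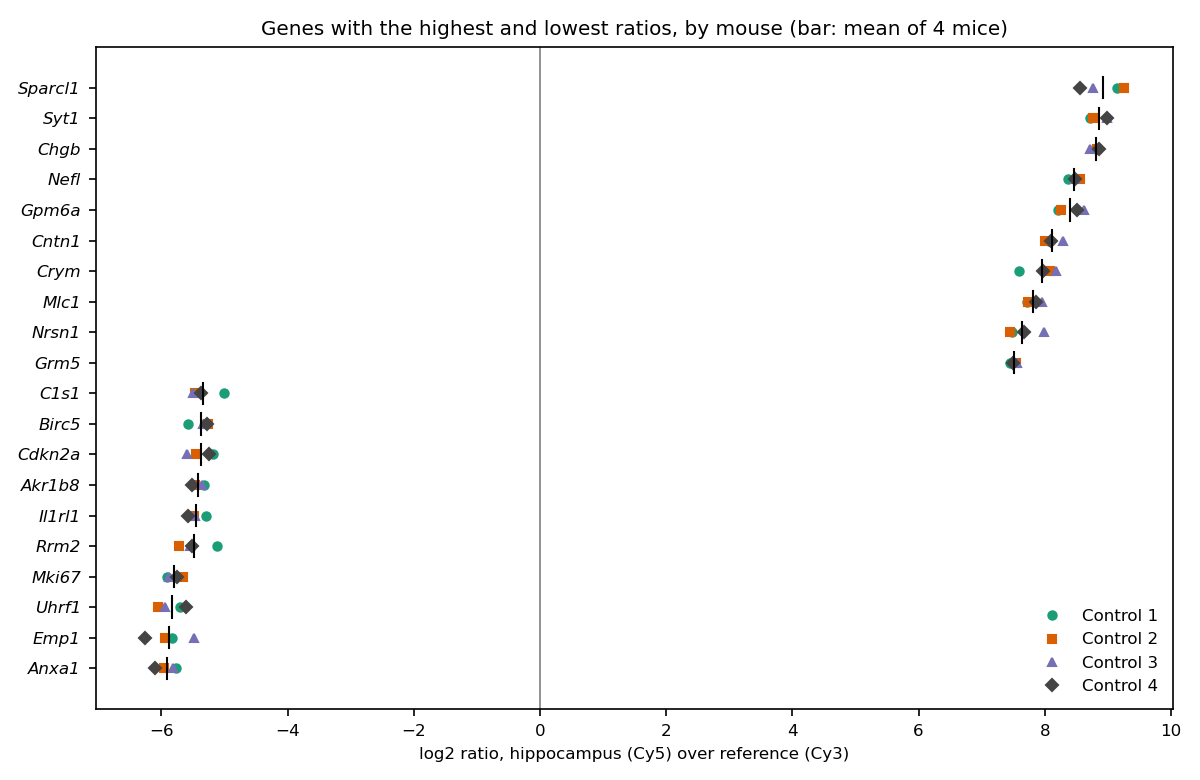
Log2 ratio of hippocampus over reference (x axis) in each of 4 control mice for the 10 genes with the highest and the 10 with the lowest mean among genes measured in both channels on all arrays. Points are mice and bars are means. The upper genes lie above 7.4 in every mouse and the lower genes below -5.0.

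Receptors and release machinery of synapses were higher in hippocampus with few exceptions. Of 26 tested genes for glutamate receptors, the receptors of excitatory transmission, 24 were higher and 1 was lower, against 32.2% and 29.7% of all genes, with a median log2 ratio of 3.67. Without genes at background in the reference 17 of 19 were higher. *Grm5* was followed by the kainate receptor *Grik4* at 6.16 ± 0.05 (SD, n = 3). Among NMDA receptor subunits, whose role in synaptic plasticity made them the study's main interest, *Grin2a* had 4.78, 5.44, 5.81 and 5.86, *Grin2b* had 4.81, 4.97, 5.02 and 5.10 and the obligate subunit *Grin1*, which lost its spot of control 1 as an outlier, had 4.59, 4.94 and 4.87 in controls 2 to 4. *Grin3a* stood at 3.47 over 3 mice, and the cerebellar form *Grin2c* at 4.57. *Grin2d* was at 0.45 and did not pass the fold threshold. *Grin3b*, known for motor neurons, was the member that was lower, at -0.90. *Grina*, a glutamate receptor-associated protein found in many tissues, was higher at 0.91 ± 0.13 (SD, n = 4), but was at -0.23 with median centring. AMPA receptor subunits, which carry most fast excitatory current, were higher for *Gria1* (5.07), *Gria3* (4.75) and *Gria4* (4.71), and *Gria2* was at least 10.6-fold higher. All 18 tested genes of the inhibitory GABA system were higher, with a median of 5.61, and so were 12 of 12 without genes at background in the reference. They included the receptor subunit *Gabrb2* at 6.83 ± 0.10 (SD, n = 4) and the vesicular GABA transporter *Slc32a1* at 6.77 ± 0.26 (SD, n = 4). The GABA-synthesizing enzymes *Gad1* and *Gad2* stood at 6.20 and 5.64. The lowest of the list was *Gabrg3* at 0.95, with *Gabbr2* at 2.97.

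Genes of synaptic vesicle release were higher in 25 of 25 cases, with a median log2 ratio of 3.81. After *Syt1*, the highest were the active zone scaffold *Pclo* at 7.47 ± 0.19 (SD, n = 4) and *Cplx1*, a clamp on vesicle fusion, at 6.94 ± 0.22 (SD, n = 4). The lowest was *Unc13a*, which primes vesicles, at 1.22 ± 0.26 (SD, n = 4). In the postsynaptic density, the protein mesh beneath excitatory synapses, 23 of 24 were higher and 0 lower (20 of 21 higher without genes at background). Its scaffold gene *Dlgap3* had 6.47, 6.47, 6.88 and 6.77, *Camk2a*, the kinase required for long-term potentiation, had 5.86, 5.95, 5.75 and 6.34, and *Cnksr2* stood at 6.47. *Shank2* at 0.21 did not pass, *Shank1* was at 1.83 and *Lrrc7* was at least 1.57-fold higher. Of 35 genes for voltage-gated channels, 34 were higher (26 of 27 without genes at background), led by the sodium channel subunits *Scn2b* (7.03 ± 0.20 (SD, n = 4)) and *Scn2a* (6.92 ± 0.28 (SD, n = 4)) and the calcium-activated potassium channel *Kcnma1*, between 6.60 and 7.34 in the 4 mice. The lowest members were *Cacna1b* at 0.60, *Cacna1e* at least 1.77-fold higher and *Cacna1c*, which heart and muscle also use, at 0.34 without a call.

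Markers of the hippocampal fields themselves were higher in 19 of 23 cases with a median of 2.35, and in 15 of 19 without genes at background. *Mpped1* had 7.17, 7.17, 7.59 and 7.32, and *Grik4* of CA3 is given above. *Neurod6*, a transcription factor of pyramidal neurons, was at least 66-fold higher, and *Spink8*, known for CA1, had 4.98, 5.13, 5.10 and 5.44. *Fibcd1* of CA1 was at 3.61, *Rgs14* of CA2 at 3.47, *Lct* of the dentate gyrus at 4.60, and *Prox1*, which specifies granule neurons, was at least 4.5-fold higher. *Trps1* at -0.02 was among the members that did not pass. Interneuron and neuropeptide genes were higher in 15 of 18 cases and lower in 0 (higher in 11 of 14 without genes at background). Next to *Cnr1*, *Cck* had 6.89, 6.85, 7.26 and 6.97, *Sst* stood at 4.84 ± 0.22 (SD, n = 4) and *Npy* at 4.51 ± 0.20 (SD, n = 4), whereas the developmental factors *Dlx1* (0.12) and *Dlx6* (0.24) and the enzyme *Nos1* (0.35) had no call.

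**Figure D2:**
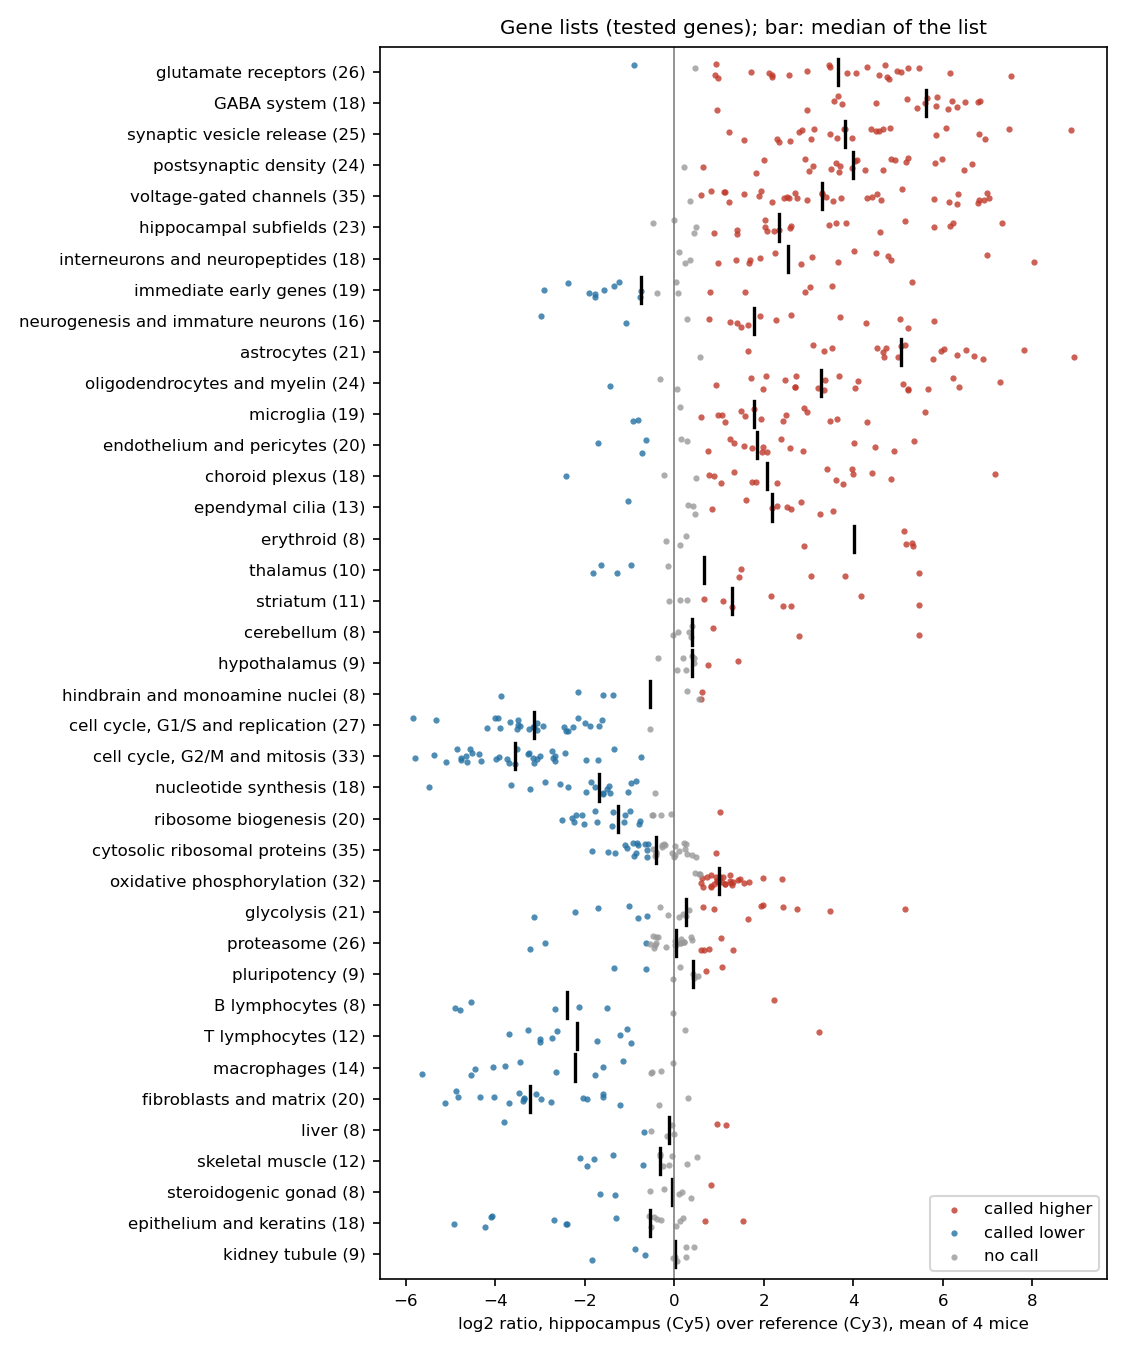
Mean log2 ratio over 4 mice (x axis) of every tested gene in 39 gene lists (rows, number of tested genes in parentheses). Points are genes, colored by call at an adjusted p of 0.05 and 1.5-fold, and bars are list medians. The synaptic, astrocyte and oligodendrocyte lists have medians above 0, and the cell cycle, fibroblast, macrophage and lymphocyte lists below 0.

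Immediate early genes, which neurons and other cells switch on within minutes of stimulation, were split. Of 19 tested, 6 were higher and 10 lower. Without genes at background 4 of 17 were higher and 10 lower. Those higher include *Egr4*, at least 37.5-fold higher, *Arc* at 4.03, 3.12, 3.54 and 3.44 in the 4 mice, *Nr4a2* at 3.03, *Homer1* at 2.91, *Npas4* at 1.57 and *Nr4a3* at least 1.69-fold. Those lower include *Fos* at -2.46, -3.25, -2.77 and -3.20, *Ier2* at -2.21, -2.44, -2.58 and -2.26 and *Egr2* at -1.91. These members were named by their ratios, not as subgroups fixed beforehand. For *Arc*, *Fos* and *Ier2* the sign was the same in all 4 mice. *Jun* (0.08), *Nr4a1* (0.03) and *Bdnf* (-0.39) had no call, and the first 2 of these were lower with median centring, at -1.15 and -1.14.

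Genes of adult neurogenesis and immature neurons were higher in 13 of 16 cases, or 11 of 14 without genes at background. The growth cone protein *Gap43*, which mature hippocampal axons also keep, stood at 5.79 ± 0.20 (SD, n = 4), *Hes5*, a Notch target of progenitors and astrocytes, at 5.21 ± 0.41 (SD, n = 4), and *Tubb3*, a neuronal tubulin, at 5.04 ± 0.31 (SD, n = 4). *Dcx*, the usual marker of new granule neurons, had 1.99, 3.14, 2.50 and 2.80. The other direction held for 2 members. *Nes*, an intermediate filament of progenitors and of many cultured cells, had -2.71, -3.04, -2.98 and -3.19, and *Sox4* stood at -1.08. *Dpysl3* at 0.28 had no call.

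Glia gave some of the highest ratios. Astrocyte genes were higher in 20 of 21 cases (19 of 20 without genes at background), with a median of 5.06. Beside *Sparcl1* and *Mlc1*, the lipid carrier *Apoe* stood at 6.89 ± 0.17 (SD, n = 4), and the astrocytic filament *Gfap* had 5.07, 4.94, 5.25 and 4.98. *Gja1*, a gap junction gene that fibroblasts and heart also express, had no call at 0.58, *Agt* was at 1.64 and *Acsbg1* at 3.09. In the oligodendrocyte list 21 of 24 were higher, but 8 of them had the reference at background, and without these 13 of 16 were higher. *Cldn11*, the tight junction protein of myelin, was at least 154-fold higher, and the lineage factor *Olig1* was at least 73.6-fold higher. *Pdgfra*, which marks oligodendrocyte precursors and also mesenchymal cells, was lower at -1.43, -1.59, -1.28 and -1.45, and *Myrf* (-0.32) and *Cspg4* (0.06) had no call.

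Microglial genes were higher in 16 of 19 cases (13 of 16 without genes at background), while macrophage genes outside the brain were higher in 0 of 14 and lower in 10 (7 of 10 without genes at background). *Cx3cr1*, the fractalkine receptor of microglia, had 5.58, 5.59, 5.75 and 5.44, and the complement genes *C1qa* and *C1qc* stood at 4.31 and 3.64. The microglial purine receptor *P2ry12* was at least 7.54-fold higher. *Trem2*, which other macrophages share, was lower at -0.92, *Tmem119* at 0.12 had no call, and *Olfml3* was lower at -0.81 by its brightest probe but at 0.19 by the median of its probes. On the macrophage side, the phagocyte glycoprotein *Gpnmb* had -4.32, -4.50, -4.66 and -4.70, the chemokine *Ccl4* had -4.28, -4.41, -4.97 and -4.16, and *Clec4d* is given above. *Fcgr1* (-0.04), *Marco* (-0.50) and *Mmp12* had no call.

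Vessel genes were higher in 15 of 20 cases and lower in 3. In 6 of the higher ones the reference was at background, and without these 9 of 14 were higher. *Cldn5*, which seals the blood-brain barrier, had 5.37, 5.37, 5.39 and 5.25, *Vtn* of pericytes stood at 4.91 ± 0.25 (SD, n = 4), and the thyroxine transporter *Slco1c1* was at least 22-fold higher. *Slc2a1*, the glucose transporter of the barrier and also of growing cells, was lower at -1.62, -1.93, -1.36 and -1.95, *Ly6c1* at -0.73 and *Pdgfrb* at -0.63. *Pecam1* (0.29) and *Kdr* (0.14) had no call. Red cell genes were higher for 5 of 8, with the globins *Hba-a1*, *Hba-a2*, *Hbb-bs* and *Hbb-bt* at 5.34, 5.30, 5.18 and 5.14. The globin genes of a pair are nearly identical, so their probes may not tell them apart. *Alas2*, of erythroid heme synthesis, stood at 2.89, and *Slc4a1*, *Tfrc* and *Fech* had no call. Ependymal genes were higher in 9 of 13 cases (8 of 12 without genes at background), led by *Fam183b* (3.54), *Dynlrb2* (3.25) and *Ccdc153* (2.83), with *Mlf1* lower at -1.04.

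Lists for neighboring and distant brain regions were described as well. Striatal genes were higher in 8 of 11 cases (7 of 10 without genes at background), with *Rasd2* at 5.47, *Ppp1r1b* at 4.18 and *Pde10a* at 2.60, while the receptors *Drd2* (0.13) and *Adora2a* (-0.12), which define striatal projection neurons, had no call. Thalamic genes were higher in 5 and lower in 4 of 10 (higher in 3 of 8 without genes at background), with *Zic1* at least 43.4-fold higher, *Ntng1* at 3.82, *Slc17a6* at 2.76, 2.91, 3.71 and 2.87, and *Prkcd* lower at -1.37, -1.58, -2.96 and -1.35. *Tnnt1* was lower at -1.63, *Lef1* at -1.28 and *Tcf7l2* at -0.96. Of the cerebellar list 3 of 8 were higher, *Zic1* and, at least 6.73- and 1.68-fold, *Cbln1* and *Car8*, in all of which the reference was at background. Of the other cerebellar genes 0 of 5 were higher, and *Pcp2* (0.41), *Barhl1* (-0.03) and *En2* (0.09) had no call. Of the hypothalamic list 2 of 9 were higher (2 of 8 without genes at background), *Pomc* at 1.42 and *Trh* at 0.75, and *Agrp*, *Hcrt* and *Oxt* had no call. In the list of hindbrain and monoamine nuclei *Th* (0.60) and *Slc6a3* (0.61) were higher. Its *Hox* genes were at background in hippocampus and higher in the reference, *Hoxc4* at least 14.7-fold, *Hoxb5* at least 4.32-fold and *Hoxb3* at least 2.46-fold, and *Slc6a2* was at least 2.73-fold higher there. A gene that hippocampal cells express too can also be higher against this reference, so these lists cannot show tissue of other regions. How much tissue of other regions these samples held was not tested.

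Genes of DNA replication and cell division formed the most uniform group on the reference side. Of 27 genes of G1/S and replication, 26 were lower and 0 higher (25 of 26 lower without genes at background), and the median of their log2 ratios was -3.14. All 33 tested genes of G2/M and mitosis were lower, with a median of -3.57, as were 27 of 27 without genes at background in hippocampus. Many genes of mitosis are repressed in resting cells through a cell cycle homology region (CHR) near the start of transcription and activated through CCAAT boxes beside it, and many genes of replication are repressed through E2F sites. Of the 8 mitotic promoters that hold both the CCAAT box and the letters TTTGAA of a CHR, 4 are shown as examples, picked with their values known. They are the 150 bases before the start given by RefSeq on GRCm38.p6, 5′ to 3′ on the strand of the gene, with the letters of both motifs and their reverse complements in capitals.
Cdc20: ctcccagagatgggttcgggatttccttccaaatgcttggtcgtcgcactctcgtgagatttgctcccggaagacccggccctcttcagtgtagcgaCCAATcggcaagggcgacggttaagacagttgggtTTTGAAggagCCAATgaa
Cdk1: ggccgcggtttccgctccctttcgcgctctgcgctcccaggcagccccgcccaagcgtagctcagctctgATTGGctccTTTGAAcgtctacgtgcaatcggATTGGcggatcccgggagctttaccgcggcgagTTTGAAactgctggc
Ube2c: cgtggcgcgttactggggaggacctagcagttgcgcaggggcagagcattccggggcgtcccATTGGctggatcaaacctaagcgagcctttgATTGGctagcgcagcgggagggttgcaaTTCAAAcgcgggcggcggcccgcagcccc
Kif11: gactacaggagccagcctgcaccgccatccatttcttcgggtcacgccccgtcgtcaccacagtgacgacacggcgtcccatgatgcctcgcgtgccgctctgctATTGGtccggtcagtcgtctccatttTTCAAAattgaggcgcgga
*Cdc20* lies at chr4:118437344-118437493 (minus strand), *Cdk1* at chr10:69352913-69353062 (minus strand), *Ube2c* at chr2:164769779-164769928 (plus strand) and *Kif11* at chr19:37376232-37376381 (plus strand). In *Cdc20* the TTTGAA nearest to the start begins 18 bases before it, and in *Kif11* 19 bases before it.

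The genes behind these promoters were low in every mouse. *Cdc20*, an activator of the anaphase-promoting complex, had -4.30, -4.61, -4.56 and -4.58, *Ube2c*, its ubiquitin-conjugating enzyme, had -3.52, -3.65, -3.60 and -3.52, and *Kif11*, the motor that separates spindle poles, had -3.03, -3.19, -3.32 and -2.96. *Cdk1*, the mitotic kinase, was at background in hippocampus and at least 3.41-fold higher in the reference. The lowest ratios of the list were those of *Mki67*, *Birc5* and *Racgap1* (-5.10 ± 0.11 (SD, n = 4)), a regulator of cytokinesis. The nearest to 0 were *Cenpf* at -0.75 ± 0.10 (SD, n = 4), *Anln* at -1.69 ± 0.27 (SD, n = 4) and *Ttk*, at least 2.48-fold higher in the reference. Over the 250 bases before the start, a CCAAT box on either strand was found in 21 of 27 mitotic promoters (77.8%) and 15 of 23 replication promoters (65.2%), against 36.1% of all tested genes and 34.5% of all promoters in the table. TTTGAA was found in 9 of 27 (33.3%) and in 3 of 23 replication promoters, against 11.1% of tested genes and 16.3% of all promoters. Both together were found in 8 of 27 (29.6%) and 2 of 23, against 4.29% and 5.73%. The synaptic vesicle list had a CCAAT box in 4 of 19 promoters (21.1%) and TTTGAA in 3 (15.8%). Over all genes called lower the shares were near those of tested genes, at 38.1% for a CCAAT box and 12.9% for TTTGAA. Over all genes called higher they were 34.2% and 9.28%. The letters of both motifs can share at most 1 base, and a match describes letters, not a bound site.

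Among replication genes, the E2F letters TTTCGCGC or their reverse complement were found in 4 of 23 promoters (17.4%), against 0.446% of tested genes and 0.255% of all promoters. *Mcm6*, *Rfc3* and *Orc1* are shown, with these letters in capitals, because their whole match lies within 150 bases of the start.
Mcm6: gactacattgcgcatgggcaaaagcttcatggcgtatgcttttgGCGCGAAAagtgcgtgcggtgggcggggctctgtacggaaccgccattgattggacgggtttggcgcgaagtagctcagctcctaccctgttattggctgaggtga
Rfc3: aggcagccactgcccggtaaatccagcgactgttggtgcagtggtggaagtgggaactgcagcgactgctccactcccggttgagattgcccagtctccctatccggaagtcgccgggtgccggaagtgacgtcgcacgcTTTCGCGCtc
Orc1: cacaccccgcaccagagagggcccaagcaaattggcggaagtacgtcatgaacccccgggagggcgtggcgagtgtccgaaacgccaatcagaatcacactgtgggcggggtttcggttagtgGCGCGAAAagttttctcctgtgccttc
*Mcm6* lies at chr1:128359706-128359855 (minus strand), *Rfc3* at chr5:151651209-151651358 (minus strand) and *Orc1*, of the origin recognition complex, at chr4:108579304-108579453 (plus strand). *Mcm6*, a subunit of the replicative helicase, had -3.55, -3.68, -4.28 and -4.26, and *Rfc3*, which loads the sliding clamp, had -2.47, -2.47, -2.39 and -2.36. The lowest of the list were *Uhrf1*, the licensing factor *Cdt1* (-5.33 ± 0.05 (SD, n = 4)) and *Mcm2* (-4.19 ± 0.14 (SD, n = 4)). *Ccne1* at -0.55 had no call, *Cdc45* was at -1.69, and *Orc1* was at least 3.04-fold higher in the reference. Nucleotide synthesis genes were lower in 17 of 18 cases, from *Rrm2* and its partner *Rrm1* (-3.65) and the mitochondrial folate enzyme *Shmt2* (-3.23) up to *Mthfd1* (-0.86), *Tyms* (-0.96) and *Cad* (-0.44, no call). Ribosome biogenesis genes were lower in 15 of 20, with the nucleolar proteins *Nolc1* at -2.51 and *Nop58* at -2.28 and the polymerase I subunit *Polr1b* at -2.24, and 1 was higher, *Wdr12* at 1.02.

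Fibroblast and matrix genes were lower in 18 of 20 cases and higher in 0 (lower in 17 of 19 without genes at background). The collagen genes *Col3a1* and *Col1a1* had -4.83, -5.33, -4.83 and -5.49 and -4.77, -5.14, -4.35 and -5.06, and *Thbs1*, a secreted matrix protein, stood at -4.87 ± 0.23 (SD, n = 4). *Lum* (0.30) and *Dcn* (-0.34), 2 small proteoglycans, had no call, and *Twist1* was at -1.21. B cell genes were lower in 6 of 8 (5 of 7 without genes at background), led by *Cd79b* at -4.68, -4.93, -5.08 and -4.91, *Pou2af1* at -4.80 and *Ms4a1*, at least 22.9-fold higher in the reference. *Cd22*, which was higher in hippocampus at 2.24, 1.92, 2.51 and 2.28, ran against its list, and *Cd79a* at -0.02 had no call. T cell genes were lower in 10 of 12 (8 of 10 without genes at background), with *Cd5* at -3.70, *Tcf7* at -3.28 and *Lck* at -3.01. *Thy1*, a surface protein of T cells that neurons carry as well, was higher at 3.26, 3.23, 3.21 and 3.25, and *Cd4* had no call.

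In the lists for liver, gonad, kidney tubule and pluripotency, 0% to 33.3% of genes were called in either direction, near or below the 32.2% and 29.7% of all genes. The epithelial list had 8 of 18 lower (8 of 17 without genes at background). Its lowest members were the keratin genes *Krt19* at -4.86, -5.08, -4.87 and -4.91, *Krt20* at -4.22 and *Krt8* at -4.10, and *Trp63* (1.53) and *Itgb4* (0.68) were higher. In the liver list *Afp*, the fetal albumin relative, was at least 14-fold higher in the reference, and *Apoa2* (1.15) and *Serpina1a* (0.95, 0.66, 2.41 and -0.22) were higher in hippocampus. The call of *Serpina1a* rests on control 3, and control 4 lay below 0. Skeletal muscle genes were lower in 5 of 12 (4 of 10 without genes at background), with *Des* at -2.10, *Tnnt3* at -1.95 and *Chrna1* at -1.80. Gonadal genes were lower in 2 of 8, *Inhba* at -1.66 and *Gata4* at -1.33, and *Inha* was higher at 0.82. The call of *Inha* rests on control 2, at 1.57 against 0.48 to 0.61 in the other mice. Kidney tubule genes were lower in 3 of 9 (1 of 7 without genes at background), among them *Pax8* at -1.85. Pluripotency genes had 2 higher, *Esrrb* at 1.06 and *Tdgf1* at 0.70, and 2 lower, *Tfcp2l1* at -1.34 and *Dppa4* at -0.64, of 9. *Xist*, the RNA that silences an X chromosome in female cells, had -3.17, -2.80, -3.40 and -3.05 in these male mice, whereas the Y-linked *Ddx3y* and *Eif2s3y* were at 0.98 and 0.69 and *Uty* at 0.34 had no call.

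Oxidative phosphorylation genes were higher in 29 of 32 cases, with a median of 1.01, but the median was -0.25 with median centring and 0.74 with Agilent's log ratio. The highest were subunits of cytochrome oxidase, *Cox6a1* at 2.41 ± 0.11 (SD, n = 4), *Cox8a* at 1.97 ± 0.07 (SD, n = 4) and *Cox4i1* at 1.67 ± 0.17 (SD, n = 4), and *Cyc1*, *Uqcrc1* and *Sdhc* had no call. Of 35 ribosomal protein genes, 14 were lower and 1 higher, *Rps24* at 0.93 by the brightest of its probes, which were called in both directions, and the median of -0.40 moved to -2.07 with median centring. *Rps3* (-1.85), *Rpl22* (-1.48) and *Rps18* (-1.32) were the lowest. Many ribosomal protein genes have near-identical pseudogenes, and their probes may share signal. Proteasome genes had a median of 0.03, with 5 higher and 3 lower of 26. The 2 that stood apart were *Psmb8* (-3.04, -3.29, -3.14 and -3.40) and *Psmb9* (-2.78, -2.96, -2.78 and -3.05), interferon-inducible subunits of the immunoproteasome, while the constitutive *Psmb5* was at 1.32 and *Psmc3* at 1.03.

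Of 21 glycolytic genes, 9 were higher and 6 lower. *Aldoc* was at 5.16 ± 0.09 (SD, n = 4), *Ldhb* at 3.49 ± 0.16 (SD, n = 4) and the neuronal enolase *Eno2* at 2.74 ± 0.05 (SD, n = 4), whereas the lactate exporter *Slc16a3* was at -3.13 ± 0.26 (SD, n = 4), *Hk2* at -2.22 ± 0.20 (SD, n = 4) and *Ldha* at -1.02 ± 0.08 (SD, n = 4). Pairs of related genes, with a form known for neurons or brain and a form known for other cells, were set side by side. Both members were tested in 30 of 34 pairs. The brain form was higher in 28 pairs and lower in 0, the general form was lower in 18, higher in 7 and without a call in 5, and 17 pairs had the brain form higher and the general form lower. The brain form had the higher ratio in every mouse in 30 of 30 pairs, with a median difference of 3.82 on the log2 scale. Since the pairs were chosen for what is known of them, this direction is a description. The smallest p that an exact sign-flip test over 4 mice can give is 0.13, rounded.

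The widest pair was that of the beta-tubulins *Tubb3* of neurons, at 4.61, 5.03, 5.25 and 5.27, and *Tubb6*, at -3.98, -4.07, -3.97 and -3.92. Among RNA-binding Hu proteins, *Elavl4* was at 4.72 and the ubiquitous *Elavl1* at -1.96, although another *Elavl1* probe was called the other way. The translation factor gene *Eef1a2* of neurons and muscle was at 5.49 and *Eef1a1* at -0.45. Subunits of the BAF chromatin remodeler, which neurons exchange when they leave the cell cycle, differed in the 3 pairs tested, *Dpf1* at 3.17 against *Phf10* at -2.60, *Actl6b* at 2.71 against *Actl6a* at -1.84, and *Ss18l1* at 2.24 against *Ss18*, which had -0.88, -0.73, -1.27 and -1.13. The splicing regulator *Ptbp1*, which represses neuronal exons and is lost in neurons, was at -2.66, -2.71, -2.93 and -2.86, and its neuronal relative *Ptbp2* at 0.78, 0.93, 0.95 and 0.48. *Hk1* and *Hk2*, *Ldhb* and *Ldha*, and the glucose transporters *Slc2a3* and *Slc2a1* each had the first member higher and the second lower. In 7 pairs both members were higher, among them *Snap25* at 3.47 and *Snap23* at 2.28, whose probes were called in both directions, *Atp2b2* at 3.54 and *Atp2b1* at 2.96, and *Mapt*, the tau gene, at 5.22 and *Map4* at 1.72. The narrowest pair was *Tubb4a* (0.52) and *Tubb5* (0.28), neither of which had a call.

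**Figure D3:**
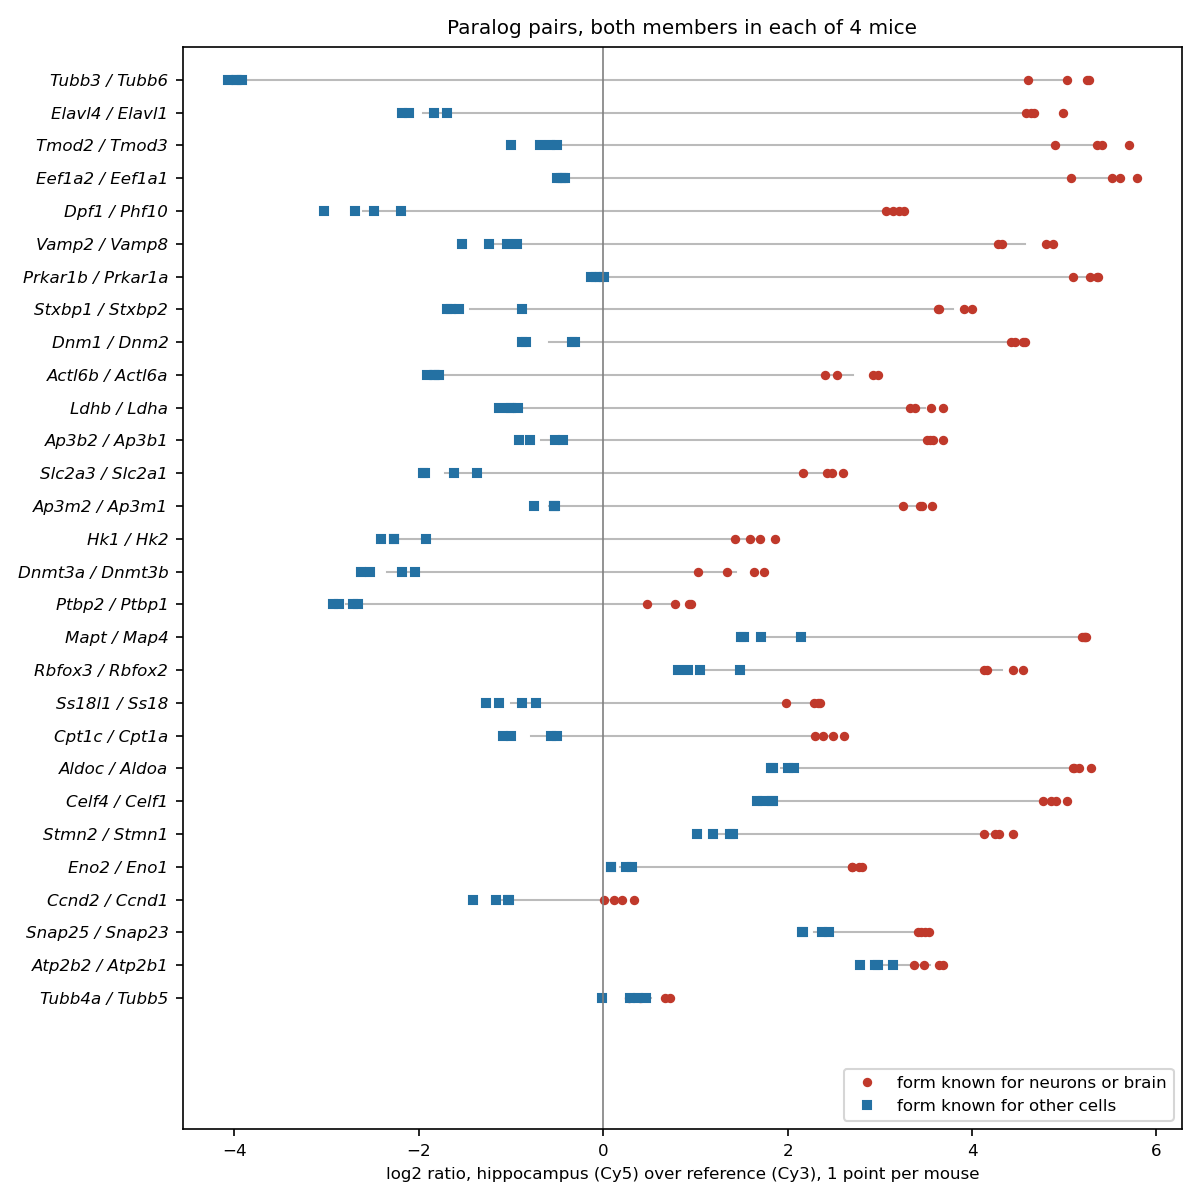
Log2 ratio of hippocampus over reference (x axis) for both members of 29 of the 30 tested paralog pairs (rows, ordered by their difference), with 1 point per mouse. Circles are the form known for neurons or brain and squares the form known for other cells. The circles lie to the right of the squares in every mouse.

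Of 27 tested genes that the study names in its text, 13 were higher and 9 lower, with 11 of 25 higher without genes at background. Beside the receptor genes above, the ephrin receptor *Epha7* stood at 3.30 ± 0.14 (SD, n = 4), the guidance cue *Sema5a* at 1.99 ± 0.31 (SD, n = 4), the Wnt receptor *Fzd4* had 1.15, 0.65, 1.58 and 1.01, and *Wnt3* was at least 2.03-fold higher, while *Wnt4* (0.03), *Hif3a* (0.36) and *Ehmt1* (0.09) had no call. Lower were the p53 target *Cdkn1a* at -3.23, -3.58, -3.00 and -3.19, *Gusb*, a lysosomal enzyme used as a reference gene for RT-PCR, at -3.08, -3.19, -3.14 and -3.18, *Gstm2*, a glutathione transferase, at -2.92 ± 0.31 (SD, n = 4), *Cyp1b1*, which oxidizes polycyclic hydrocarbons, at -2.26 ± 0.49 (SD, n = 4), *Nqo1*, a quinone reductase, at -2.16 ± 0.23 (SD, n = 4), *Plin4* at -2.00 ± 0.20 (SD, n = 4), *Sema3b* at -1.01 and the estrogen receptor *Esr1* at -0.60. Each ratio sets control hippocampus against the reference pool and says nothing of exposure.

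The labels give the same reference RNA for every array, although not whether it was 1 lot, and the spread of the hippocampal channel was set against that of the reference channel. Over 12867 genes measured in both channels in all mice, the SD of the log2 ratio had a median of 0.14. In the single channels it was 0.15 for Cy5 and 0.075 for Cy3, and the SD was larger in Cy5 for 82.1% of genes. An SD over 1 was reached by 31 genes in Cy5, 7 in Cy3 and 19 in the ratio. In some of the 31 both channels varied while the ratio did not. *Tcp11l1*, for example, had a Cy5 SD of 1.14, a Cy3 SD of 1.28 and a ratio SD of 0.15. Hippocampus was always in Cy5, so tissue and dye cannot be told apart in this contrast. With median centring the median SD of the ratio was 0.20.

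The mice differed most, as a group of genes, in the choroid plexus, the secretory epithelium of the ventricles that borders the hippocampus. The mean of its 18 tested genes was 2.90, 1.88, 3.26 and 1.49 in controls 1 to 4, an SD of 0.83, whereas the means of the other lists had SDs of 0.22 or less. For 4 of these genes the reference was at background. Over the 11 genes above background in both channels on all arrays the mean was 2.33, 1.39, 2.63 and 1.07, and in 11 of 11 controls 1 and 3 lay above controls 2 and 4. *Kcnj13*, a potassium channel of this epithelium, had 3.13, 1.80, 3.49 and 0.79, *Folr1*, which carries folate into the fluid, 2.24, 1.15, 2.70 and 0.82, and *Clic6* 4.18, 3.48, 4.57 and 3.66. *Ttr*, the thyroxine carrier, had 7.26, 6.94, 7.63 and 6.84, and *Aqp1*, a water channel also found in many other cells, was lower at -1.57, -3.20, -1.55 and -3.38 in the same order of mice. In all, 15 of the 18 were higher and 1 lower (11 of 14 higher without genes at background), with *Sostdc1* at 4.84 and *Kl* at 4.42 next to *Ttr*, and *Lbp* (-0.23) and *Slc4a5* (0.49) without a call. *Cldn2*, which the study names, is a member, at 1.75, 0.58, 2.56 and 0.41. The order does not follow the slide rows or the conflict of labels, but it is that of the slide columns, with controls 1 and 3 in columns 1 and 2, so that mouse and column cannot be told apart. How much choroid plexus was taken with each hippocampus was not tested.

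**Figure D4:**
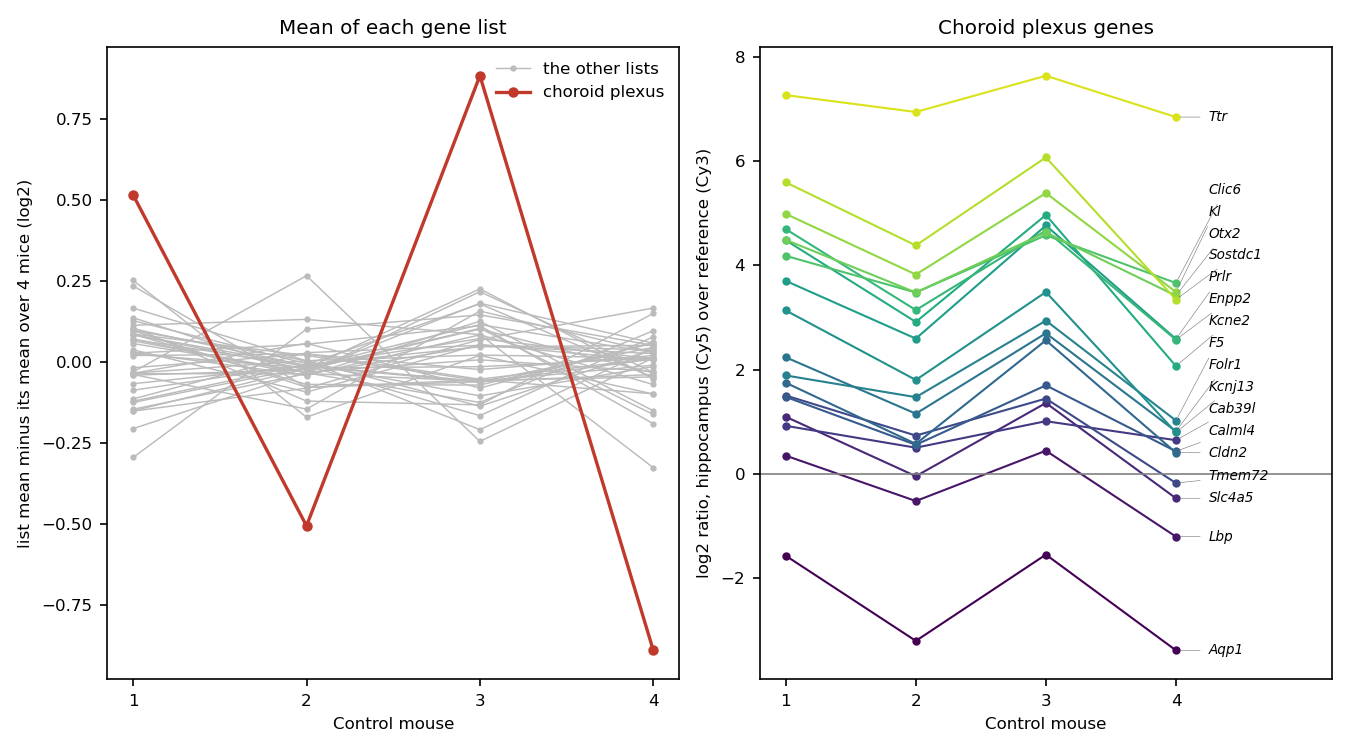
Left, mean log2 ratio of each of 41 gene lists in 4 control mice, as the difference from its own mean over the mice. Right, log2 ratio of 18 choroid plexus genes in each mouse (4 of them with the reference at background), with lines joining the values of 1 gene. The choroid plexus list (red) runs from -0.89 to 0.88, and its genes are higher in controls 1 and 3.

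The 10 genes with the largest SD of the ratio were *Rnu3b1*, *Lbhd2*, *Baiap2l1*, *Gm5741*, *Kcnj13*, *Slc25a18*, *Amy1*, *Mrpl41*, *Lrrc45* and *Abhd14b*. *Lbhd2* had 2.58, 0.72, -0.05 and 3.72, with a Cy5 SD of 1.97 and a Cy3 SD of 0.41. *Rnu3b1*, a small nucleolar RNA, had -1.96, -1.91, -1.63 and 1.70, and *Baiap2l1* had 0.91, 0.39, 0.14 and -2.41, so that control 4 was alone in both. The amylase gene *Amy1* had 0.85, 3.12, 0.59 and 0.94, and *Lrrc45* had -0.80, 1.22, -1.42 and -0.85, with control 2 above the others in both. For *Slc25a18*, a mitochondrial glutamate carrier of astrocytes, control 1 stood at 2.68 and the others at 5.22 to 5.47. Here the Cy3 SD was 1.18 and the Cy5 SD 0.19, so that the spread lay in the reference channel. *Mrpl41*, a mitochondrial ribosomal protein, had 0.28, 0.03, -1.92 and -1.80 and *Abhd14b* had 0.10, 0.71, -1.40 and -1.54. In these 2 genes controls 1 and 2 lay above controls 3 and 4, which is the order of the slide rows and of the conflicting labels. A dimmer *Mrpl41* probe had a mean of 1.08, against -0.86 for the brightest. *Tomm22*, of the mitochondrial import pore, ran the same way at 0.98, 0.72, -0.98 and -0.80, and *Gm19668* the other way at -0.19, -0.22, 1.42 and 1.52; both were named after their values were seen.

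**Figure D5:**
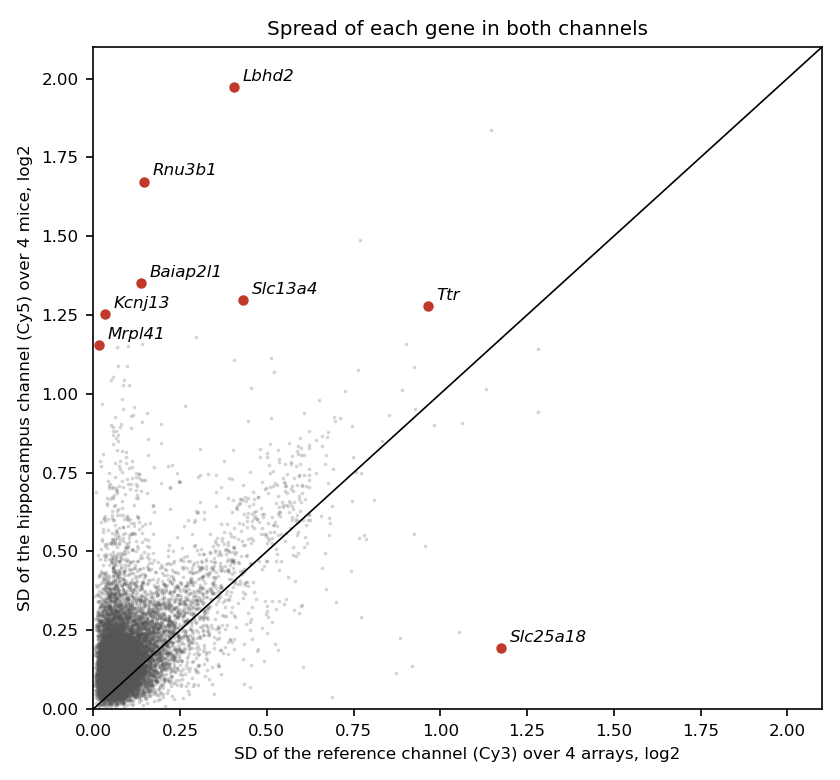
SD over 4 mice of the normalized log2 signal in the hippocampus channel (y axis) against the SD over the same 4 arrays in the reference channel (x axis), for 12867 genes measured in both channels in every mouse. The line marks equal SDs. *Lbhd2*, *Rnu3b1*, *Baiap2l1* and *Kcnj13* have a larger SD in hippocampus than in the reference, and *Slc25a18* the reverse.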

How the data were processed

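Hippocampal RNA of control mice (Cy5) and universal mouse reference RNA (Cy3) was read on Agilent 2-color arrays. The authors deposited, per the file headers, the scanner's intensity of every spot from Agilent Feature Extraction 11.0.1.1, with background levels, outlier marks, a log10 ratio and spike-in statistics. The authors also deposited a table of log2 ratios, normalized by LOWESS per the study's methods, which correlated with the ratios computed here at a Pearson r of 0.998 to 0.999 across probes. Its centring beyond that is not given in the sources used here, and its column medians were -0.0457 to -0.0343. The 4 arrays of exposed mice were not used here.

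In R 4.3.3 with limma 3.58.1, the median signals had normexp background correction with an offset of 50. Spots marked as outliers were then set to missing, and control features left out. Within-array loess gave the ratios, which were averaged over replicate spots. The test took probes well above background on at least 3 of 4 arrays in either channel, with at least 3 values, which left 36059 of 55681. The mean log2 ratio was tested against 0 with lmFit and eBayes and Benjamini-Hochberg adjustment over all tested probes, and calls needed an adjusted p of 0.05 and 1.5-fold. All adjusted p-values in the text are from limma. Where a gene was not well above background in 1 channel on any array, the fold is a bound, taken after loess and Aquantile against the higher of the dim probe's own signal and the lowest signal well above background on that array, and is open to dye bias. SDs are over the mice with a value. The fit was tested on simulated data.

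Of the array's probes, 27235 (48.9%) were named through RefSeq accessions and a gene table of GRCm38.p6. The brightest tested probe stood for a gene. Promoters are from RefSeq on GRCm38.p6, 1 start per gene, and were found for 12768 of 16130 tested genes. The named genes are the 10 highest and 10 lowest called genes measured in both channels on all arrays, the 5 highest bounds in each direction, up to 3 members at each end of every list with members against its median, the paralog pairs, the 10 largest SDs and genes the study names. A few genes that the rule selects are not reported here. Others were named after their values were seen. The members and gene lists were chosen with earlier results of these data known. Alternatives covered background correction, normalization, the authors' ratios, filters, outlier spots, the test, slide row, the probe for a gene and each mouse left out. Summaries used Python 3.11.15 with pandas 2.3.3.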

Additional observations from a re-analysis of the deposited data

Results flagged for a closer look

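In 30 of 346 sets of 4 values, 1 mouse stood apart from the other mice by a gap that took up most of the whole range (above Dixon's 95% critical value). Chance gives about 1 in 20 among independent sets not chosen for their spread, but these sets include genes chosen for the largest SD among mice and list means together with their own members, so that rate does not apply to them. No explanation was tested for any of them. Control 1 stood apart in *Cdc20* at -4.30 against -4.61 to -4.56 (gap 0.836), *Gria2* at 2.82 against 3.63 to 3.71 (gap 0.911), *Lef1* at -1.08 against -1.36 to -1.32 (gap 0.861), *Pclo* at 7.19 against 7.55 to 7.58 (gap 0.925) and *Rps18* at -1.24 against -1.35 to -1.34 (gap 0.892). In control 1 the same held for *Slc25a18* at 2.68 against 5.22 to 5.47 (gap 0.910), *Tmem119* at 0.25 against 0.08 to 0.08 (gap 0.968), *Trem2* at -0.68 against -1.03 to -0.98 (gap 0.837), the mean of the list hippocampal subfields at 2.73 against 2.87 to 2.89 (gap 0.862) and the mean of the list oligodendrocytes and myelin at 3.40 against 3.21 to 3.23 (gap 0.879). In control 1 the same held for the mean of the list epithelium and keratins at -1.20 against -1.53 to -1.49 (gap 0.871). Control 2 stood apart in *Amy1* at 3.12 against 0.59 to 0.94 (gap 0.865), *Gria4* at 5.17 against 4.52 to 4.58 (gap 0.911), *Inha* at 1.57 against 0.48 to 0.61 (gap 0.882) and *Pde10a* at 2.45 against 2.64 to 2.67 (gap 0.835). Control 3 stood apart in *Apoe* at 7.14 against 6.78 to 6.84 (gap 0.847), *Chgb* at 8.72 against 8.83 to 8.85 (gap 0.844), *Epha7* at 3.09 against 3.35 to 3.40 (gap 0.837), *Hoxb5* at -2.60 against -2.05 to -1.94 (gap 0.838) and *Pcp2* at 0.88 against 0.22 to 0.30 (gap 0.880). In control 3 the same held for *Pecam1* at 0.49 against 0.20 to 0.24 (gap 0.849), *Ppp1r1b* at 4.53 against 4.03 to 4.09 (gap 0.890), *Prkcd* at -2.96 against -1.58 to -1.35 (gap 0.858), *Slc17a6* at 3.71 against 2.76 to 2.91 (gap 0.848) and *Vtn* at 5.28 against 4.75 to 4.84 (gap 0.842). In control 3 the same held for *Wnt3* at 0.90 against 1.05 to 1.07 (gap 0.849) and the mean of the list glycolysis at 0.66 against 0.52 to 0.54 (gap 0.880). Control 4 stood apart in *Lum* at -0.83 against 0.57 to 0.83 (gap 0.845), *Rnu3b1* at 1.70 against -1.96 to -1.63 (gap 0.912) and the mean of the list ependymal cilia at 1.35 against 1.76 to 1.81 (gap 0.897). In *Gria2*, *Wnt3* and *Hoxb5* 1 channel was at background on all arrays, so the printed values are ratios to a channel at background. For *Slc25a18* the spread lay in the reference channel, with a Cy3 SD of 1.18 against a Cy5 SD of 0.19.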

How the results depend on the processing

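The counts of probes higher and lower stayed within 1.5-fold of 10022 and 8745 under the alternatives other than the spike-in zero, except that Agilent's own log ratio gave 13163 lower probes. With each mouse left out in turn, 9913 to 10155 probes were higher and 8626 to 8887 lower. Median centring gave 7460 higher and 12670 lower. The zero on the spike-in transcripts, chosen after the data were seen, gave 5033 higher and 26743 lower. A slide row as a block gave 9879 and 8609, and limma's treat against 1.5-fold 8270 and 7135. Of 309 named genes, 237 kept direction and call under every alternative other than the spike-in zero that gave them a value, and 30 of 30 pair differences kept their sign. A call was lost without a change of sign by 21 named genes with treat, 12 with median centring and 8 with the authors' ratios. With a mouse left out, 3 to 5 lost it. Of 41 list medians, 33 kept their sign under all alternatives other than the spike-in zero and 8 did not. The medians also changed in size. The median over a gene's probes moved them by -0.76 to 0.53. Only genes above background in both channels on all arrays moved them by -1.61 to 1.11. The glutamate receptor median went from 3.67 to 2.95 and 4.64 in these 2 settings. Agilent's log ratio turned the median of the proteasome list (-0.19) and the median of the kidney tubule list (-0.09), the authors' ratios the median of the proteasome list (-0.23) and the median of the kidney tubule list (-0.12), no background correction the median of the kidney tubule list (-0.0192) and leaving out control 1 the median of the kidney tubule list (-0.01). With median centring the sign turned for the median of the oxidative phosphorylation list (-0.25), the median of the glycolysis list (-1.13), the median of the proteasome list (-1.12), the median of the genes the study names (-0.23), *Cyc1* (-0.85), *Dpysl3* (-0.71), *Ehmt1* (-0.59), *Fech* (-0.73), *Grina* (-0.23), *Jun* (-1.15), *Kdr* (-0.65), *Nr4a1* (-1.14), *Psmb5* (-0.18), *Psmc3* (-0.45), *Rps24* (-0.80), *Tmem119* (-0.60), *Tubb5* (-1.28) and *Wnt4* (-0.63). By the median over the probes of a gene it turned for *Elavl1* (0.13) and *Olfml3* (0.19), with controls 1 and 2 alone for the median of the proteasome list (-0.0194), *Baiap2l1* (0.65) and *Tomm22* (0.85), and with only genes above background in both channels on all arrays for the median of the thalamus list (-0.96), the median of the hindbrain and monoamine nuclei list (0.56), the median of the liver list (0.95) and the median of the genes the study names (-0.22). The spike-in zero turned the median of the thalamus list (-0.88), the median of the cerebellum list (-0.90), the median of the hypothalamus list (-1.09), the median of the oxidative phosphorylation list (-0.73), the median of the glycolysis list (-1.40), the median of the proteasome list (-1.66), the median of the pluripotency list (-1.04), the median of the kidney tubule list (-1.56), the median of the sex chromosome markers list (-0.77), the median of the genes the study names (-1.14), *Apoa2* (-0.46), *Cacna1c* (-0.70), *Cd4* (-1.37), *Cspg4* (-1.60), *Cyc1* (-1.22), *Ddx3y* (-0.54), *Dlx1* (-1.39), *Dpysl3* (-1.40), *Drd2* (-1.33), *Ehmt1* (-1.57), *Eif2s3y* (-0.85), *En2* (-1.48), *Fech* (-1.42), *Fzd4* (-0.36), *Gja1* (-0.97), *Gm19668* (-0.78), *Grina* (-0.77), *Hcrt* (-1.60), *Hif3a* (-1.14), *Hk1* (-0.0228), *Inha* (-0.59), *Itgb4* (-0.76), *Jun* (-1.67), *Kdr* (-1.49), *Lum* (-1.19), *Map4* (-0.0199), *Nos1* (-0.71), *Nr4a1* (-1.69), *Oxt* (-1.17), *Pcp2* (-1.02), *Pecam1* (-1.22), *Psmb5* (-0.25), *Psmc3* (-0.72), *Ptbp2* (-0.70), *Rps24* (-0.64), *Sdhc* (-1.27), *Serpina1a* (-0.35), *Shank2* (-1.12), *Slc4a5* (-1.08), *Tdgf1* (-0.54), *Tfrc* (-1.46), *Th* (-0.82), *Tmem119* (-1.52), *Trp63* (-0.16), *Tubb4a* (-1.24), *Tubb5* (-1.37), *Uqcrc1* (-1.15), *Uty* (-0.69), *Wdr12* (-0.57) and *Wnt4* (-1.53). That zero lowers every ratio of Agilent's by construction. The cause of the other turns was not tested. No paired analysis was possible because only 1 group of mice entered the comparison, beyond the pairing of both channels on an array that each ratio already holds. For dim probes the signal over background limits the ratio, and with 4 arrays the precision is limited by their number.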

Other observations

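Probes of the same gene did not always run together. Among 4265 genes with several tested probes, 168 (3.94%) had probes called in opposite directions. For *Snap23*, which encodes a SNARE of the plasma membrane, the brightest probe stood at 2.28 and a dimmer one at -0.63. For *Elavl1* the brightest stood at -1.96 and a dimmer one at 2.22, and for *Rps24* 3 probes ranged from -1.20 to 0.93. Which transcripts these probes detect was not tested.

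Upstream sequence was also described for all called genes. The 250 bases before the start held a median of 15 CpG dinucleotides for 4053 genes higher in hippocampus and 14 for 3782 genes lower, against 14 for all 12768 tested genes with a promoter. For the genes called at 16-fold or more it was 13 for 522 higher and 9 for 90 lower. The letters TATAAA, on either strand, were found in 6.79% of the promoters of genes called higher and 8.96% of those called lower, against 8.23% of tested genes, and the cAMP response element TGACGTCA in 3.11% and 2.06%, against 2.51%. TTCAGCACC, the left part of the site of the neuronal repressor REST, was found in 17 (0.419%) and 7 (0.185%) promoters, against 0.298% of tested genes. These shares are descriptions, with no test.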
